A study of Mus musculus with 4 samples.

Results

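The 10 genes described here encode molecules by which leukocytes roll along, stick to and cross the vessel wall. They were taken by symbol from the 55450 genes of the series, with no threshold on their values. Of them, 6 are molecules of the endothelium (Selp, Sele, Icam1, Icam2, Vcam1 and Cd34) and 4 are their leukocyte partners (Selplg, Itga4, Itgal and Itgam). Liver cells other than hepatocytes came from 1 wild-type C57B6 mouse per group, aged 18 to 20 weeks. The control was given normal saline. In the other 3 groups fibrosis was induced with 12 weeks of intraperitoneal thioacetamide (TAA), a compound toxic to the liver. TAA+C7.5 and TAA+C30 add celecoxib, an inhibitor of the prostaglandin-forming enzyme COX-2, given by gavage at 7.5 or 30 mg/kg starting in week 5. With 1 library per group there was no replicate and no test between groups, so every difference below is between 2 libraries, and treatment, mouse and library cannot be told apart. Where 4 values are listed for a gene, they follow the order control, TAA, TAA+C7.5, TAA+C30. Intervals cover counting error only.

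A leukocyte in the blood is first caught by selectins, which bind sugars on carrier proteins of its surface and let it roll. Chemokines then switch its integrins to a binding state, and these hold immunoglobulin-type molecules of the endothelium until the cell stops and crosses. In the liver much of this takes place in the sinusoids, whose fenestrated endothelium is known for low selectin levels and for constant display of ICAM-1, while VCAM-1 is also made by resident macrophages. Selp (P-selectin) is stored in granules of endothelial cells and platelets, whereas Sele (E-selectin) is made by activated endothelium.

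After filtering, 24099 cells remained, 5666 to 6460 per library, with a median of 1967 (TAA+C7.5) to 4571 (TAA) UMIs (distinct RNA molecules counted) per cell. The deposited barcodes held 17888247 to 48419305 UMIs per library. At most 13 cell barcodes were shared by any pair of libraries. The cells fell into 48 clusters, of which 41 were placed in 16 classes by marker genes, so that "endothelial" below means endothelial-like by these markers, and so for the other classes. All 16 endothelial markers were at least 2-fold above the level in other cells. Hepatic stellate cells formed no class. The endothelial class held 2899 cells in control, 310 in TAA, 69 in TAA+C7.5 but 18 in TAA+C30, and the last number was below the 20 cells set as the minimum for a level. Median depth in these cells was 3544, 10604.5, 3659 and 6144 UMIs.

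Levels are given as CPM, the UMIs of a gene per 1000000 UMIs of its class in that library. Over all libraries together the endothelial class held 88.1% of the 1927 Selp UMIs and 94.4% of the 478 Sele UMIs. It held 67.8% of the Icam2 UMIs, 47.3% of those of Vcam1, 31.5% of those of Icam1 and 28.0% of those of Cd34. These pooled shares and their order depend on the libraries, which differed in endothelial cell number. In control alone the class held 93.1% of the Selp, 97.6% of the Sele, 88.9% of the Icam2 and 86.2% of the Vcam1 UMIs. In TAA alone it held 93.4%, 95.7%, 56.2% and 34.1% of them. By mean level over libraries, Vcam1 was highest in Kupffer cells, the resident macrophages of the liver (821 CPM), followed by endothelium (527 CPM) and cholangiocytes, the bile duct cells (167 CPM). Icam1 was highest in natural killer (NK) or innate lymphoid cells (439 CPM), then in endothelium (385 CPM) and neutrophils (191 CPM). Cd34, a sialomucin of endothelial and progenitor cells, was highest in myeloid progenitors (175 CPM), then in endothelium (104 CPM) and type 1 and type 2 conventional dendritic cells (cDC1 87.9 and cDC2 79.0 CPM). These means order a gene's classes and carry no test. They cover only libraries with at least 20 cells of the class, which leaves out TAA+C30 for endothelium and control for myeloid progenitors. The Icam1 order differed by library. NK or innate lymphoid cells ran from 202 CPM in control to 872 CPM in TAA+C7.5. Endothelium was above them in control (255 CPM) and in TAA (517 CPM). For Icam1, Vcam1 and Cd34 the ranges of the leading pair of classes over libraries overlapped. Within control, TAA and TAA+C7.5, however, Vcam1 was higher in Kupffer cells than in endothelium each time.

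**Figure D1:**
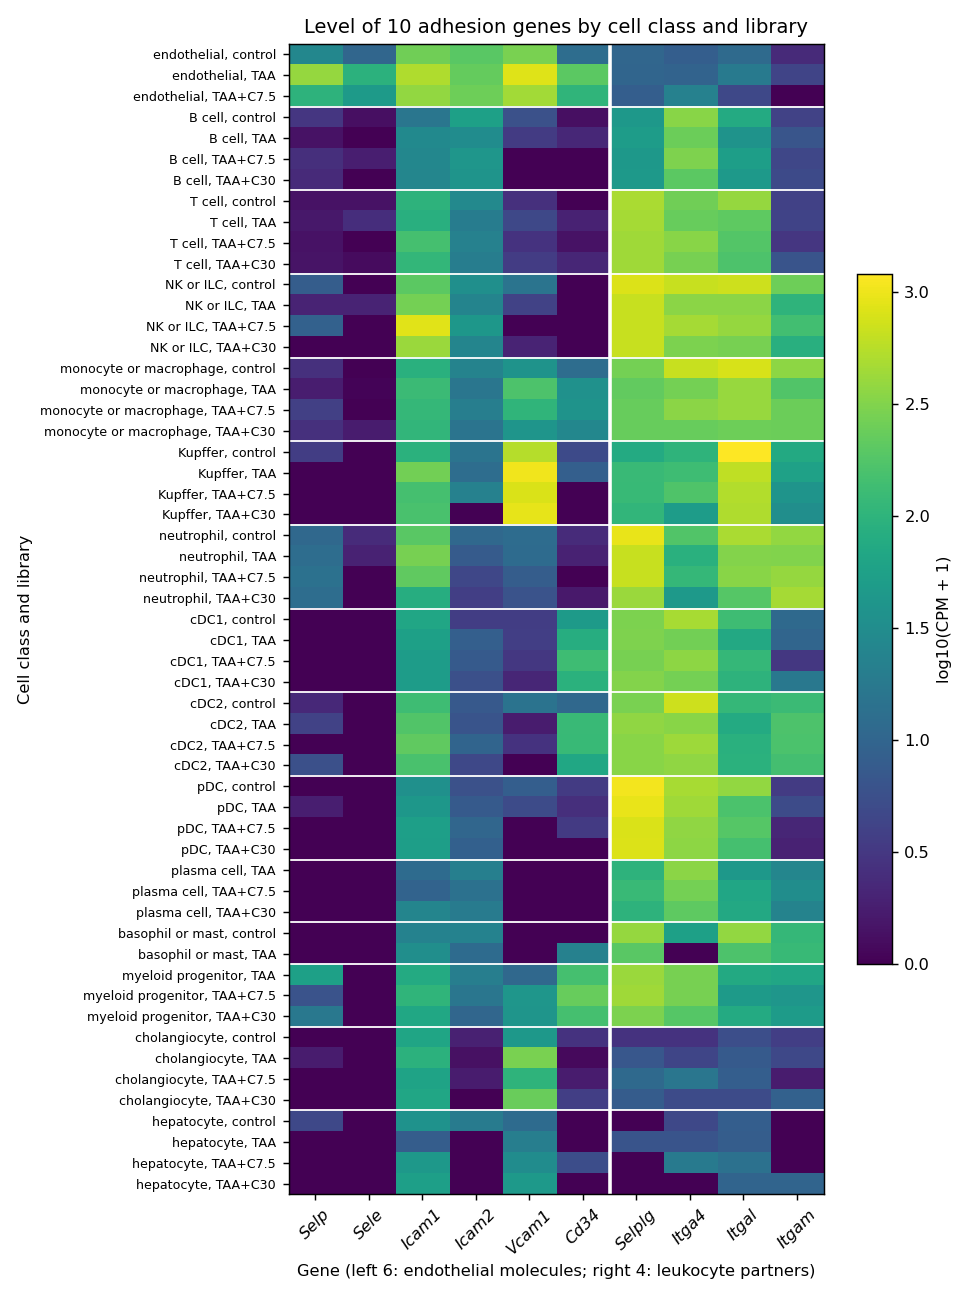
Level of the 10 genes (columns) by class and library with at least 20 cells (rows; migratory dendritic cells left out) as log10(CPM + 1), with brighter colours for higher levels. Selp and Sele are high in the endothelial rows and near 0 in most others, Vcam1 is also high in Kupffer cells, and the leukocyte partners are high in leukocyte rows.

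The genes lie at these places in GRCm38, the mm10 build of the files, with positions from GENCODE M21. Selp is at chr1:164115264-164150026 and Sele at chr1:164048234-164057677, both on the plus strand and 57.6 kb apart. Icam1 is at chr9:21015985-21028817 (plus), Icam2 at chr11:106377656-106388075 (minus), Vcam1 at chr3:116109949-116129688 (minus) and Cd34 at chr1:194938819-194961279 (plus). Among the partners, Selplg is at chr5:113818536-113832644 (minus), Itga4 at chr2:79255426-79333123 (plus), Itgal at chr7:127296260-127335138 (plus) and Itgam at chr7:128062640-128118491 (plus). Selp, Icam1, Vcam1, Cd34 and Itga4 overlap an annotated gene on the other strand, and Itgam overlaps Gm49368 on its own strand. How the counting treated strand is not given in the sources used here.

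Selp, Sele, Icam1 and Cd34 had higher levels in TAA than in control endothelium (values below), so the 250 bases before their RefSeq start sites (GRCm38.p6) are shown, 5′ to 3′ on the gene's strand. Capitals mark matches, on either strand, to a loosely written core of the NF-kB site (GGG, any 5 bases, CC) and to TGACTCA, the AP-1 site.
Selp, chr1:164115014-164115263: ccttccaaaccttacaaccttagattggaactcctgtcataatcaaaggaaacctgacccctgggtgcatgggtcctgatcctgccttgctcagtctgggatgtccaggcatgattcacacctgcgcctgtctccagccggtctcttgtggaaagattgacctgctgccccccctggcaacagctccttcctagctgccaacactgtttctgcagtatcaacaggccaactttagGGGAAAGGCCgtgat
Sele, chr1:164047984-164048233: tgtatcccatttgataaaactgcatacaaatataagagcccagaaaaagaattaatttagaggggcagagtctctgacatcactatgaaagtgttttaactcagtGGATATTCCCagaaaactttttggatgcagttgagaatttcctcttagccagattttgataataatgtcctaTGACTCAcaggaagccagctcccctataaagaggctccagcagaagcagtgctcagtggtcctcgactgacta
Icam1, chr9:21015690-21015939: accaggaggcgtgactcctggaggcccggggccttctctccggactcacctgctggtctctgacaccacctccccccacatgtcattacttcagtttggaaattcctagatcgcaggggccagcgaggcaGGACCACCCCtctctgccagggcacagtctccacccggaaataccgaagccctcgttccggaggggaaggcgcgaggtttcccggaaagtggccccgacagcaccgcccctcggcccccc
Cd34, chr1:194938571-194938820: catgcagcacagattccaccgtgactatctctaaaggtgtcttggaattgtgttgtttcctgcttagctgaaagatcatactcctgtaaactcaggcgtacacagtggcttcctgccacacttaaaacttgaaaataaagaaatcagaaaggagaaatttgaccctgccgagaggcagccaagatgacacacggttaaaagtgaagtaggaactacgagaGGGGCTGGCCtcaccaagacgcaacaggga
The NF-kB core began 15 bases before the start in Selp (GGGAAAGGCC), 145 in Sele (GGATATTCCC), 120 in Icam1 (GGACCACCCC) and 30 in Cd34 (GGGGCTGGCC). Sele also held TGACTCA 73 bases before its start. The table held 6 of the 10 members, and 5 of these 6 had the NF-kB core, Itgam with overlapping matches and Itga4 with none. This loose core was found in 45.8% of 32851 promoter windows of that length and TGACTCA in 4.46%, so a match is a description of letters and not of a site in use.

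In endothelium, both selectins were far higher in the TAA library than in the control library. Selp had 25.5 CPM in control (95% exact Poisson interval 22.8 to 28.4; 326 UMIs), 387 CPM in TAA (366 to 408; 1300 UMIs) and 97.9 CPM in TAA+C7.5 (64.5 to 142; 27 UMIs). The 3 intervals did not overlap. The TAA to control ratio of Selp was 15.2 (exact conditional binomial interval 13.4 to 17.2). Sele had 9.46 CPM in control (7.85 to 11.3), 93.4 CPM in TAA (83.4 to 104) and 47.1 CPM in TAA+C7.5 (25.1 to 80.6). Its TAA to control ratio was 9.87 (7.98 to 12.3).

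The integrin ligands differed less, and not to the same degree. Vcam1, which binds the α4 integrin encoded by Itga4, had 286 CPM in control (276 to 295), 854 CPM in TAA (823 to 886) and 442 CPM in TAA+C7.5 (367 to 528), a TAA to control ratio of 2.99 (2.85 to 3.14). Icam1, the ligand of the integrins that contain the products of Itgal and Itgam, had 255 CPM (246 to 264), 517 CPM (493 to 542) and 384 CPM (315 to 465), and its ratio was 2.03 (1.91 to 2.15). Icam2, a ligand of the Itgal integrin present on resting endothelium, had 197, 225 and 250 CPM, with a ratio of 1.14 (1.05 to 1.24). Cd34, which can carry selectin-binding sugars, had the highest ratio of the 6, 17.1 (14.3 to 20.5), from 11.7 CPM in control (9.86 to 13.7) to 199 CPM in TAA (184 to 214), with 102 CPM in TAA+C7.5 (67.5 to 147).

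A gene was counted as different where its log2 ratio, with 10 CPM added to both sides, was at least 1 in size (2-fold) and both libraries together held at least 10 UMIs. By this rule 4 of the 6 endothelial molecules were higher in TAA than in control endothelium (Selp log2 3.48, Cd34 3.27, Sele 2.41 and Vcam1 1.55) and 0 were lower, beside 1.74% higher and 0.706% lower among the 14452 genes measured in this class. Icam1 was just short of it at 0.99, and Icam2 was at 0.19. In TAA+C7.5 against TAA, 1 of 6 was lower and 0 higher, beside 2.8% lower and 1.28% higher among all genes measured. That gene was Selp, 3.95 times lower (2.70 to 6.02; log2 -1.88). Vcam1 was at -0.93, Cd34 at -0.90, Sele at -0.86, Icam1 at -0.42 and Icam2 at 0.15. Scaling by trimmed means (TMM), which moved all ratios of this comparison by the same amount, put Vcam1 (-1.04) and Cd34 (-1.01) past the threshold as well. All 4 endothelial molecules that were higher in TAA than in control had a TAA+C7.5 level between those of the other libraries.

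**Figure D2:**
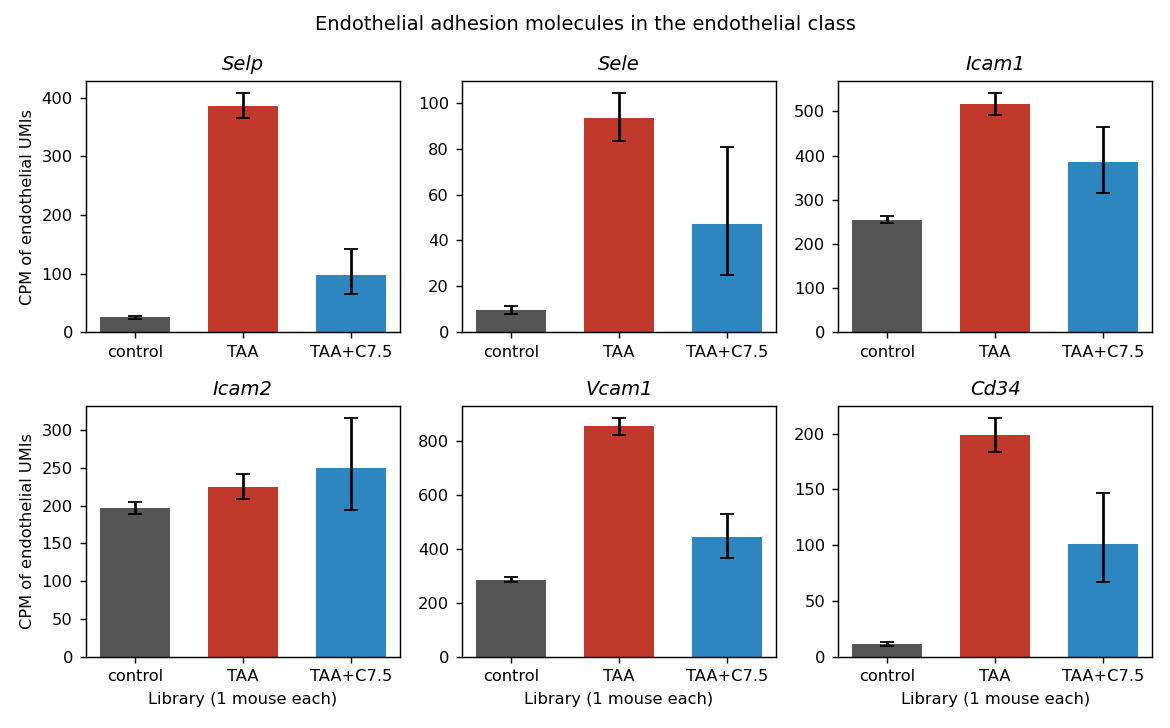
Level (CPM, bars from 0) of the 6 endothelial molecules in endothelium, with 1 bar per library (TAA+C30 left out) and 95% exact Poisson intervals as error bars. The TAA bar is the tallest for Selp (387), Sele (93.4), Icam1 (517), Vcam1 (854) and Cd34 (199), while the Icam2 bars lie between 197 and 250.

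The TAA+C7.5 values rested on few molecules in few cells. Its 27 Selp UMIs came from 10 of 69 cells, and 5 cells held 74.1% of them. For Sele, 5 cells held 76.9% of 13 UMIs, for Vcam1 50.0% of 122 and for Icam1 47.2% of 106. In TAA, by contrast, 153 of 310 cells held Selp, and the 5 highest held 16.8% of the UMIs, with up to 64 in a cell. The Poisson intervals treat molecules as independent and are too narrow where a few cells hold most of them.

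In the 18 TAA+C30 endothelial cells (120759 UMIs) the values stood side by side with the rest without a comparison. Selp had 45 UMIs, or 373 CPM (272 to 499), and Cd34 32 UMIs, or 265 CPM (181 to 374). Icam1 was at 464 CPM (350 to 602), Vcam1 at 356 CPM (258 to 480), Icam2 at 166 CPM (101 to 256) and Sele at 24.8 CPM (5.12 to 72.6) from 3 UMIs.

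Cells with a UMI were more frequent in TAA than in control endothelium for all 6 molecules as counted, and at equal depth for all of them but Icam2, whose intervals overlapped. Cells with a Selp UMI made up 4.73% of control, 49.4% of TAA and 14.5% of TAA+C7.5 endothelial cells. With each cell thinned to 1000 UMIs, which left out 502, 39 and 9 shallower cells, the shares were 1.84% (exact Clopper-Pearson interval 1.34 to 2.46), 17.3% (13.03 to 22.4) and 5.00% (1.04 to 13.9). For Cd34 the thinned shares were 0.918%, 18.1% and 13.3%, and unthinned 3.52%, 66.8% and 33.3%. For Vcam1 they were 16.9%, 36.9% and 26.7% thinned, and 33.8%, 66.8% and 44.9% unthinned. Icam2, at 16.4%, 18.5% and 20.0% after thinning, had overlapping intervals, although its unthinned shares of 46.2%, 71.9% and 58.0% spread more widely. B cells, which should lack Selp, Sele, Vcam1 and Cd34, had thinned shares of at most 0.458% for these 4 genes in any library, at median depths of 1558.5 to 3310 UMIs.

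Control and TAA endothelial cells fell largely into different clusters. There was 1 library per group and no batch correction, so different cells, changed states and a library effect cannot be told apart. The endothelial class was clustered again without the 10 genes and the adhesion lists, giving 11 clusters, numbered here from 0. Cluster 8, led by Ednrb, Cnmd, Plac8, Selp and Lyz2 (Plac8, Lyz2 and Cd74 among its 10 leading genes are also expressed by immune cells), held 70.6% of TAA, 53.6% of TAA+C7.5 and 0.448% (13 cells) of control endothelial cells. It held 96.5% of the TAA Selp UMIs and 87.9% to 97.4% of those of the other 5 molecules. In its TAA cells Selp was at 401, Vcam1 at 888 and Icam1 at 540 CPM. In its 37 TAA+C7.5 cells the same genes were at 123, 538 and 494 CPM. In its 13 control cells Vcam1 was at 289 and Icam1 at 77.9 CPM, and no UMI of Selp was counted.

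In control endothelium the molecules were not spread evenly either. Cluster 4, led by Adgrg6, Vwf, Rspo3 and Fbln2, held 75 control cells, 2.59% of the control endothelium, and 37.7% of its Selp UMIs. There Selp was at 209, Vcam1 at 688, Icam1 at 593 and Cd34 at 62.8 CPM, for each of these 4 genes the highest level of any control cluster with at least 10 cells. Clusters 0 and 3, with Wnt2 and Cdh13 of the pericentral list among their 10 leading genes (Wnt2 is known from endothelium near the central vein), had Selp at 14.0 and 39.9 CPM. Cluster 1, with Ntn4, Msr1 and Ltbp4 of the periportal list among its 10 leading genes, of which Igha and Htra1 came first, had it at 0.484 CPM, from 1 UMI. Icam2 ranged only from 145 to 224 CPM over the control clusters. Without cluster 8, 3 of 6 molecules remained at least 2-fold higher in TAA than in control, Cd34 at 4.06, Selp at 2.52 and Sele at 2.48, whereas Vcam1 was at 0.48 and Icam1 at -0.35. These values rested on few TAA molecules, because cluster 8 held 219 of 310 TAA cells and 1255 of their 1300 Selp UMIs. It also held 291 of the 314 Sele and 587 of the 668 Cd34 UMIs of TAA endothelium.

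**Figure D3:**
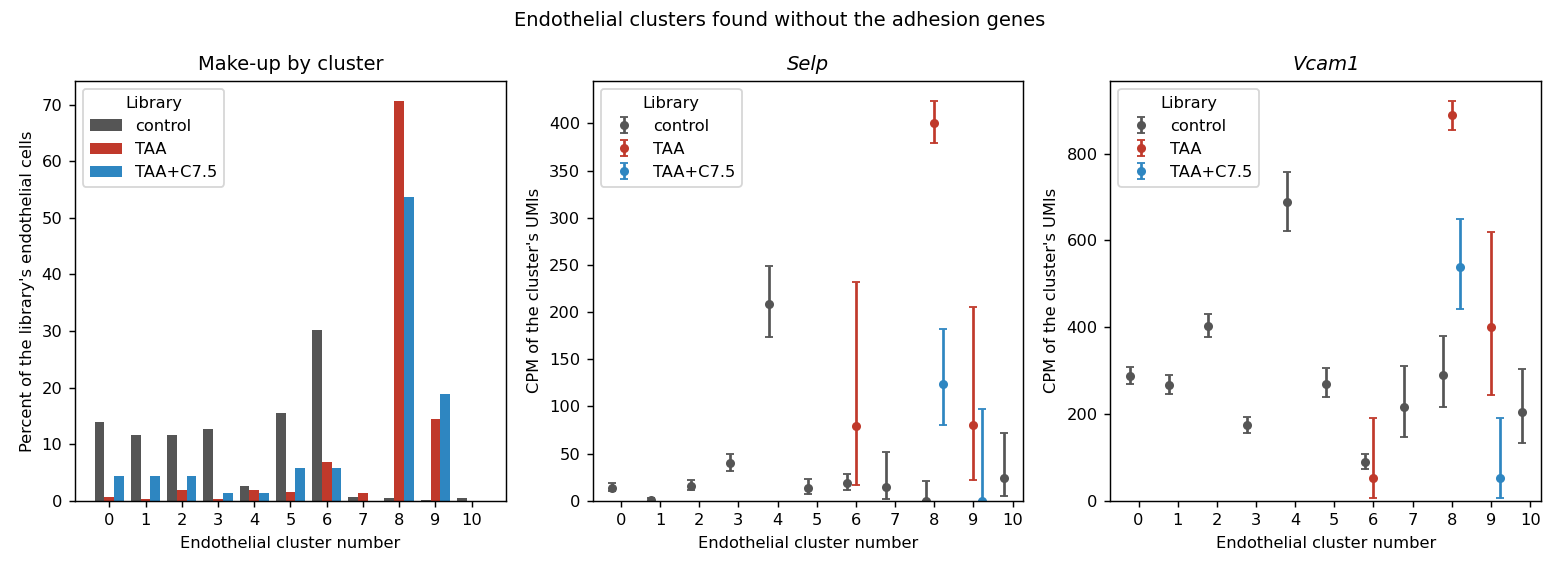
Make-up of the endothelial class by cluster (percent of each library's endothelial cells) and level (CPM) of Selp and Vcam1 by cluster number in 3 libraries, where a cluster held at least 10 cells, with 95% exact Poisson intervals. TAA and TAA+C7.5 cells lie mostly in cluster 8, control cells mostly in others, and within control both genes peak in cluster 4.

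Other measures were also higher in TAA than in control endothelium, but in TAA+C7.5 they did not all follow the endothelial molecules. Genes of a list of dissociation and immediate early genes were summed to 4835 CPM in control, 8953 in TAA and 7549 in TAA+C7.5 endothelium. Of its 10 genes 5 were at least 2-fold higher in TAA than in control, beside 1.74% of all genes. Atf3 was at 2.21 and Egr1 at 1.84 (median of the list 0.97, of all genes -0.02). Platelet markers, of interest because platelets hold P-selectin, were summed to 25.0, 48.5 and 170 CPM, with 3, 1 and 1 of 7 at 0. Monocyte or macrophage markers were at 37.2, 79.1 and 14.5 CPM in endothelium, against 5212 to 6089 CPM in the monocyte or macrophage class itself. Neutrophil markers were at 137, 409 and 247 CPM. The part of these in the differences was not tested. Leaving out cells under 1000 UMIs left Selp at 3.48 and Vcam1 at 1.54 in TAA against control.

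Lists of related genes, described by counts, gave a background for the 6. Of all genes measured in endothelium, 1.74% were called higher and 0.706% lower in TAA against control. For TAA+C7.5 against TAA these shares were 1.28% and 2.8%. Of 17 other endothelial adhesion genes 15 were measured, and 1 was at least 2-fold higher in TAA than in control endothelium, with a list median of -0.07. It was Vwf, a clotting factor stored with P-selectin (85.7 against 37.2 CPM, 1.02, and 0.99 with TMM scaling). In TAA+C7.5 against TAA the only called gene of that list was Vwf again, lower at -1.97, from 4 against 288 UMIs. Of 13 cytokine receptor and NF-kB genes, 5 were higher in TAA, among them Tnfaip3, an NF-kB inhibitor (361 against 58.7 CPM, 2.44), and Nfkbiz (610 against 144 CPM, 2.01), and 0 were lower, with a median of 0.46. In TAA+C7.5 against TAA 2 of them were lower, Tnfaip3 (-2.17, from 20 against 1215 UMIs) and Nfkb2 (-1.40, from 5 against 216 UMIs). Of 13 measured genes of other leukocyte adhesion Itga6, a laminin-binding integrin, was higher in TAA (184 against 64.2 CPM, 1.38). In TAA+C7.5 against TAA Itgb7 was higher in that list (1.02, from 5 against 13 UMIs, and 0.92 with TMM scaling). Itgav was lower there (-1.42, from 4 against 187 UMIs). Of 9 integrin activation genes Rasgrp2 was lower in TAA (88.7 against 197 CPM, -1.07). Of 6 measured genes of selectin ligand glycosylation 0 passed 2-fold in either direction, with a median of 0.07.

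Vcam1 also differed outside the endothelium. In cholangiocytes it was at 42.5 CPM in control, 290 in TAA, 100 in TAA+C7.5 and 234 in TAA+C30. The TAA level was 6.82 times that of control (5.10 to 9.32; log2 2.51), beside 1.4% of genes called higher in that class. TAA+C7.5 was lower than TAA (-1.45, beside 0.433% called lower) and TAA+C30 higher than TAA+C7.5 (1.15, beside 1.02% called higher). In the TAA+C30 cholangiocytes 8 of 10 dissociation and immediate early genes were lower than in TAA+C7.5 and 0 higher. Of all genes measured there 0.907% were called lower. The part of the dissociation genes was not tested. In Kupffer cells Vcam1 was at 550, 1027, 797 and 910 CPM, 0.89 for TAA against control, from 366, 145, 40 and 23 cells at median depths of 1397 to 10539 UMIs.

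In monocytes or macrophages Vcam1 was at 37.2 CPM in control, 167 in TAA, 102 in TAA+C7.5 and 39.4 in TAA+C30. TAA was higher than control (log2 1.90, beside 2.36% called higher), and TAA+C30 lower than TAA (-1.84, beside 0.548% called lower) and than TAA+C7.5 (-1.18, beside 0.233%). The class was a mixture, and nearly all of its Vcam1 lay in 1 of its clusters. Cluster 18, with macrophage genes such as C1qb, Gpnmb and Trem2 in the lead, had Vcam1 at 250, 252, 259 and 151 CPM in the 4 libraries in the order above, and it held 12.2%, 56.7%, 30.1% and 23.7% of their cells. Cluster 19, led by F13a1, Vcan and Fn1, had 1.48 to 4.85 CPM and cluster 22, led by Ace, had at most 9.23 CPM. Within cluster 18 control, TAA and TAA+C7.5 were therefore close, from 24 control cells, while the class levels differed. Cd34 followed the same cluster, with 85.8, 49.4, 76.4 and 64.8 CPM in cluster 18 and at most 16.0 CPM in clusters 19 and 22, and its class level was higher in TAA than in control (35.0 against 11.6 CPM, 1.06).

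Icam1 differed in several leukocyte classes. In NK or innate lymphoid cells it was at 202, 273, 872 and 409 CPM. The TAA+C7.5 level was 3.19 times that of TAA (2.77 to 3.69; log2 1.64, beside 1.01% called higher), and TAA+C30 was lower than TAA+C7.5 (-1.07, beside 0.735% called lower). In that class Nfkbia and Nfkbiz of the NF-kB list and Hspa1a and Hspa1b of the dissociation list were also higher in TAA+C7.5 than in TAA. Hspa1a and Hspa1b were not particular to it. Both were called higher in B cells, T cells, neutrophils, plasmacytoid dendritic cells and cholangiocytes too, and neither in endothelium or cDC2. In neutrophils Icam1 was at 195, 276, 212 and 80.9 CPM, lowest in TAA+C30, which was below TAA (-1.65, beside 3.32% called lower) and TAA+C7.5 (-1.29, beside 1.85%). Neutrophil cluster 25, led by the granule genes Ngp, Camp and Ltf of less mature neutrophils, held 33.5% of TAA+C30 neutrophils and at most 7.84% in the other libraries, and had Icam1 at 0 to 15.3 CPM. In the main neutrophil cluster Icam1 was at 197, 315, 268 and 195 CPM, and without cluster 25 the same comparisons were at -0.67 and -0.44, short of 2-fold. In Kupffer cells Icam1 was at 90.6 CPM in control and 268 in TAA (1.46, beside 4.03% called higher), and 4 of 10 dissociation and immediate early genes were higher there as well, while endothelial markers in Kupffer cells were summed to 2591 CPM in control and 511 in TAA. In hepatocytes it was lower in TAA, from 4 against 10 UMIs (-1.44, beside 9.24% called lower).

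Icam2 was the other way round in leukocytes, below zero for TAA against control in 6 of 6 classes, from -0.69 to -0.19, with 0 called. The median of all genes in these classes was -0.11 to -0.02. Its highest leukocyte level was in B cells, at 55.3 CPM in control, 30.4 in TAA, 40.8 in TAA+C7.5 and 37.9 in TAA+C30. Summed endothelial markers, which B cells should lack, were at 467 CPM in control B cells, 58.9 in TAA, 20.2 in TAA+C7.5 and 6.53 in TAA+C30, so that control was the highest library for both. The part of free endothelial RNA in the Icam2 values was not tested.

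**Figure D4:**
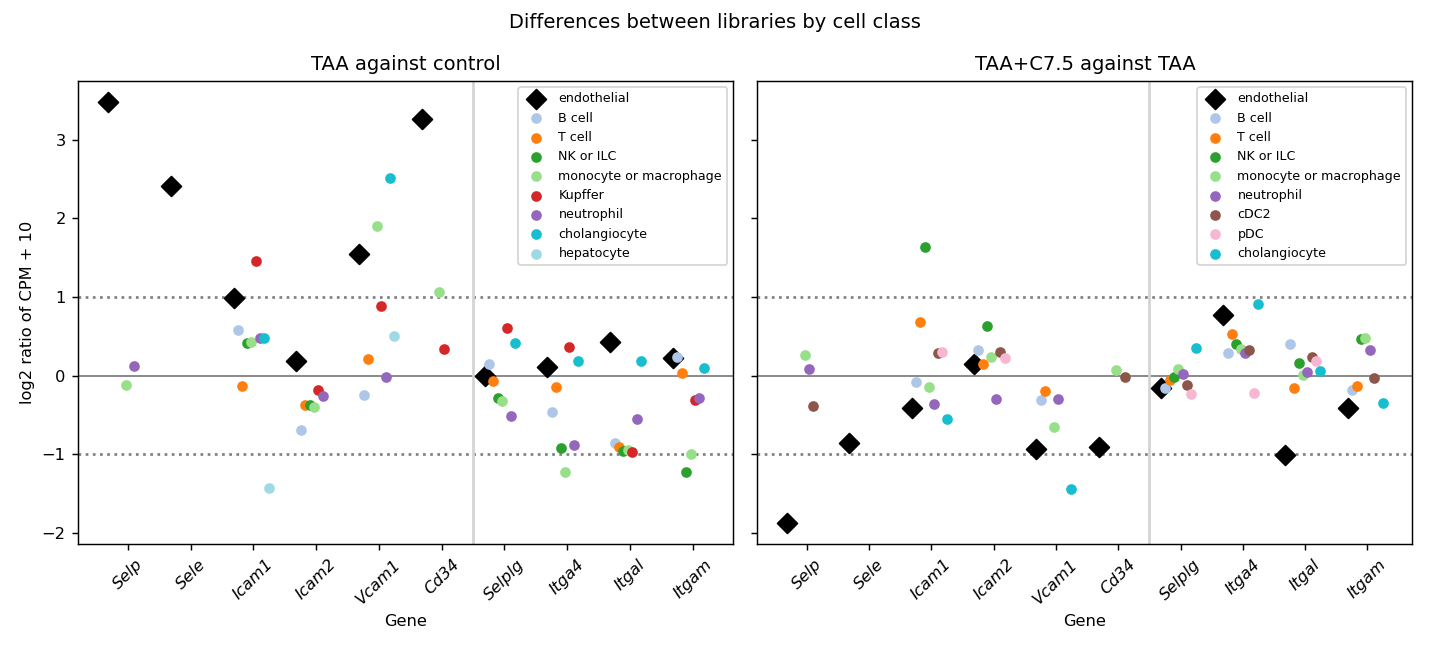
Log2 ratio (10 CPM added) of each gene in each compared class for TAA against control and TAA+C7.5 against TAA, with diamonds for the endothelial class and dotted lines at 2-fold. Selp, Cd34, Sele and Vcam1 lie above the upper line in TAA endothelium, and most points of the 4 leukocyte partners lie between the lines.

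Few pairs of leukocyte partner and class passed 2-fold. In 6 leukocyte classes, each with 100 or more cells on both sides, 24 pairs of partner and class were compared between TAA and control. Of these 0 were at least 2-fold higher and 2 were lower, beside 1.86% higher and 2.41% lower among all genes in these classes. Below zero were 19 of 24. The median of all genes was itself below zero in each of these 6 classes (-0.11 to -0.02), and the share of all genes below zero was not counted. TMM scaling would raise these ratios by 0.14 to 0.23. For TAA+C7.5 against TAA 0 of 27 pairs were higher and 0 lower (0.44% and 0.508% of all genes), and for TAA+C30 against TAA 0 and 0 as well (0.376% and 0.712%). For TAA+C30 against TAA+C7.5, 0 of 27 were higher and 1 lower (0.365% and 0.471%).

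Selplg encodes PSGL-1, the main leukocyte ligand of P-selectin. It was highest in plasmacytoid dendritic cells, at 1066, 959, 811 and 833 CPM. NK or innate lymphoid cells had 814, 666, 659 and 668 CPM and T cells 484, 459, 441 and 433 CPM, so that T cells stayed within a narrow range. B cells, with 42.8 to 49.1 CPM, were the lowest of the lymphocyte classes in each library. In neutrophils Selplg was at 942, 656, 663 and 411 CPM. In the main neutrophil cluster it was at 954, 730, 795 and 769 CPM, and in the granule-rich cluster 25 at 163 to 179 CPM. Over the 6 classes the TAA to control log2 ratios ran from -0.52 to 0.61.

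Itga4 encodes the α4 chain of the integrins that bind VCAM-1. Monocytes or macrophages had 657 CPM in control, 275 in TAA, 349 in TAA+C7.5 and 233 in TAA+C30. TAA was 2.39 times lower than control there (2.21 to 2.58; log2 -1.22, beside 2.05% called lower), 1 of the 2 pairs called lower, and TMM scaling brought it just short of 2-fold. The clusters of that class ranked alike in each library, with 612 to 960 CPM in the Ace cluster, 252 to 505 in cluster 19 and 124 to 372 in cluster 18. Itga4 in cluster 18 was at 372 CPM in control, 172 in TAA, 192 in TAA+C7.5 and 124 in TAA+C30, the control value from 24 cells. NK or innate lymphoid cells had 666, 346, 458 and 294 CPM. T cells had 259, 232, 340 and 281 CPM and B cells 344, 246, 301 and 199 CPM, of which 1 cluster held 79.2% of the control and 3.32% of the TAA cells. In that cluster Itga4 was at 318 CPM in control and 215 in TAA. Neutrophils had 173, 89.3, 111 and 44.3 CPM, and TAA+C30 was 2.51 times lower than TAA+C7.5 (1.91 to 3.28; log2 -1.16), a call that was lost without cluster 25 (-0.80).

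Itgal encodes the αL chain of LFA-1, which binds ICAM-1 and ICAM-2. It was highest in Kupffer cells, at 1199 CPM in control, 607 in TAA, 526 in TAA+C7.5 and 512 in TAA+C30, and then in monocytes or macrophages, at 776, 397, 400 and 253 CPM. T cells had 390, 203, 181 and 165 CPM and NK or innate lymphoid cells 689, 349, 390 and 279 CPM. The control library was the highest of the 4 in each of the B, T, NK or innate lymphoid, monocyte or macrophage, Kupffer and neutrophil classes. TAA against control ran from -0.97 to -0.55 in these 6, and from -0.83 to -0.38 with TMM scaling, with 0 called. In each monocyte or macrophage cluster the control library was again the highest, with 565 CPM in cluster 18, 399 in cluster 19 and 1396 in cluster 22, against 360, 289 and 1162 CPM in TAA.

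Itgam encodes the αM chain of Mac-1, a further ICAM-1 receptor, of myeloid and NK cells. Neutrophils had 381, 312, 393 and 458 CPM, highest in TAA+C30. Their cluster 25 had 521 to 539 CPM and their main cluster 375, 279, 359 and 334 CPM. Monocytes or macrophages had 354, 173, 246 and 245 CPM. NK or innate lymphoid cells had 247, 99.8, 141 and 86.1 CPM, and TAA was 2.48 times lower than control (1.86 to 3.29; log2 -1.23, and still past 2-fold with TMM scaling), beside 4.55% called lower in that class. T and B cells had at most 5.41 CPM in any library. In endothelium the 4 partners had at most 21.8 CPM in any of the 3 libraries with at least 20 cells, and the 1 pair past 2-fold there, Itgal in TAA+C7.5 against TAA (-1.02), rested on 1 and 59 UMIs.

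**Figure D5:**
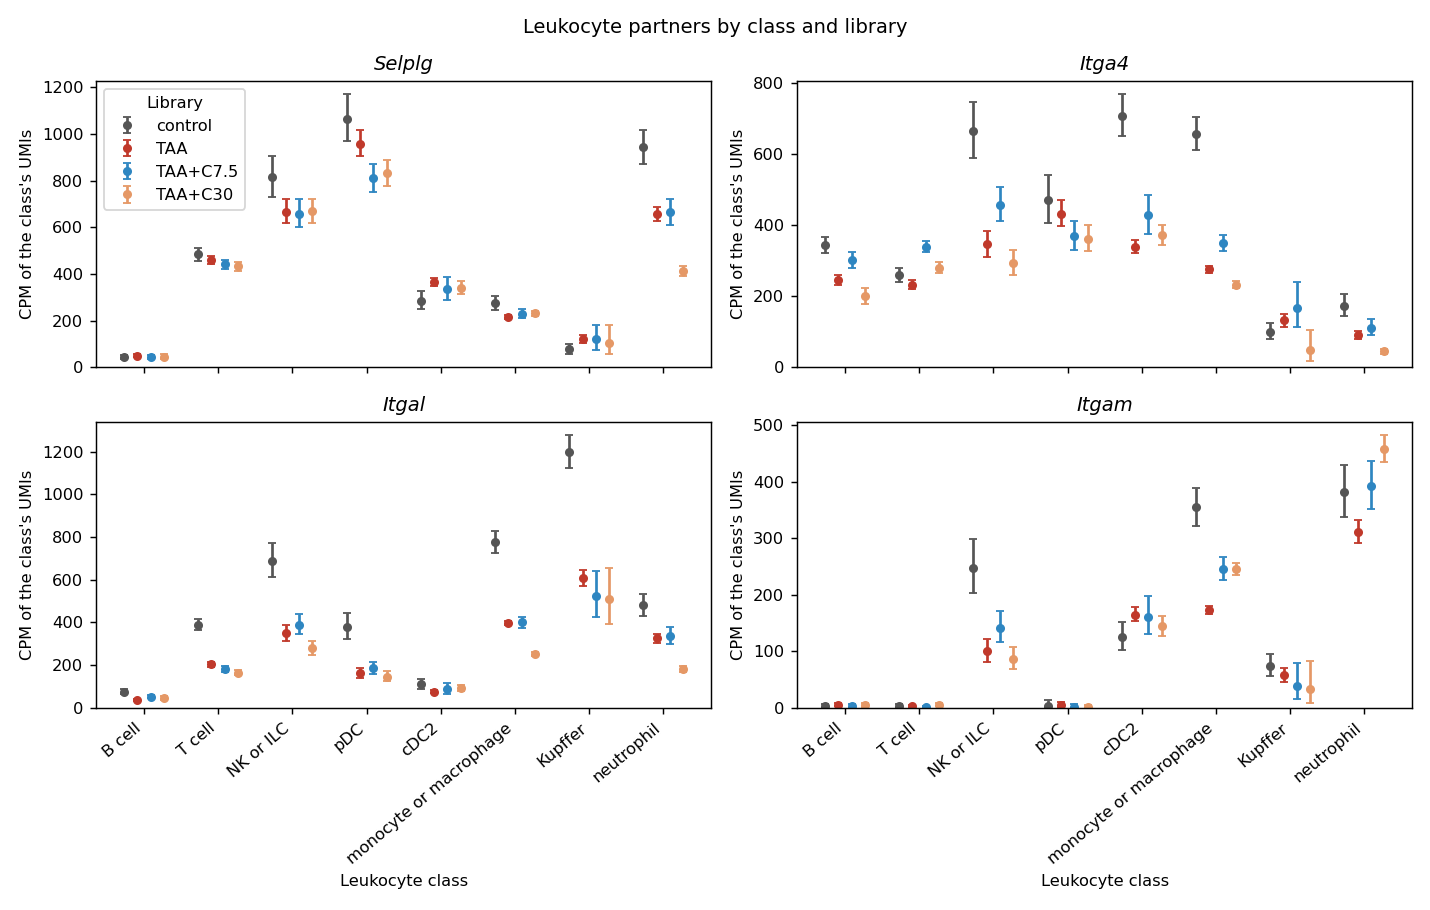
Level (CPM) of Selplg, Itga4, Itgal and Itgam in 8 leukocyte classes, 1 panel per gene, with a point per library and 95% exact Poisson intervals. Control points are the highest for Itgal in the T, NK or innate lymphoid, monocyte or macrophage, Kupffer and neutrophil classes, and the Selplg points of T cells lie close together.

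Lists of related genes in the same 6 leukocyte classes are given by counts for TAA against control, where the median of all genes was -0.11 to -0.02. Over these classes together 1.86% of all pairs of gene and class were called higher and 2.41% lower. Of the other leukocyte adhesion genes 0 passed 2-fold in B cells (11 measured), T cells (14) and neutrophils (12), while in NK or innate lymphoid cells 0 were higher and 2 of 13 lower. In monocytes or macrophages 1 of 12 was higher and 1 lower, and in Kupffer cells 1 of 10 was higher and 1 lower, with list medians over the 6 classes of -0.40 to 0.38. Of the selectin ligand glycosylation genes 1 pair of gene and class was called, lower, and of the integrin activation genes 2, both lower. Of the other endothelial adhesion genes 7 of 13 measured were lower and 1 higher in Kupffer cells (median -1.21, beside 4.86% of genes called lower in that class). Among these 7 were Pecam1, Stab2 and Emcn. In NK or innate lymphoid cells 3 of 5 were lower (median -1.02, beside 4.55% called lower). Of these, Mcam rested on 4 TAA and 13 control UMIs and Stab1 on 4 and 9, and Stab1 was at -0.93 with TMM scaling. In monocytes or macrophages 2 of 12 were higher and 1 lower (median -0.40, beside 2.36% called higher and 2.05% lower). B cells had 2 of 13 lower (median -0.47, beside 0.978%) and T cells 2 of 10 (median -0.42, beside 0.847%), with 0 higher in both. In neutrophils 3 of 10 were lower (median -0.64, beside 2.2% called lower). Endothelial markers in neutrophils were summed to 663 CPM in control and 43.8 in TAA. They were lower in TAA in Kupffer cells too (values above), and their part in these counts was not tested. In TAA against control Spn, a sialomucin of leukocytes, was lower in monocytes or macrophages (-1.94) and in NK or innate lymphoid cells (-1.39), where Itga2 (-1.14) and St3gal4 (-1.04), a sialyltransferase of selectin ligands, were lower too. Itga6 was higher in monocytes or macrophages (1.63), and Vcl (-1.02) and Rasgrp2 (-1.01) were lower. TMM scaling put Itga2 (-0.92) and St3gal4 (-0.82) in NK or innate lymphoid cells short of 2-fold. It did the same to Vcl (-0.79) and Rasgrp2 (-0.78) in monocytes or macrophages. In Kupffer cells Itgax was higher (1.65) and Itga1 lower (-1.88). In TAA+C30 against TAA Gcnt1, an enzyme of selectin ligand synthesis, was lower in neutrophils (-1.52), as was Itgax (-1.19). TMM scaling would raise the neutrophil ratios of that comparison by 0.37.

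Genes with the most similar profiles were sought over 45 profiles of class and library with at least 50 cells, among 7983 genes, as a description; profiles of a library share its depth and its free RNA. Sele was most like Col5a2, Adamts4 and Ednrb (Pearson r 0.98 each), and Selp most like Sele (0.92), Adamts4 (0.92) and Col5a2 (0.91). Outside the 3 endothelial profiles Sele had at most 1.52 CPM, so its r rested largely on those 3. Icam1 was nearest Bhlhe40 (0.83), Icam2 nearest Cnrip1 (0.87), Vcam1 nearest Itga9 (0.92) and Cd34 nearest Olfm1 (0.83). Selplg (0.92) and Itgal (0.89) were both most like Itgb2, the β2 chain with which the Itgal product pairs, Itga4 was most like Cytip (0.93) and Itgam most like Osm (0.89). Between the sides, Selp and Selplg had r -0.25, Vcam1 and Itga4 -0.58, and Icam1 and Itgal 0.29.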

How the data were processed

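UMI counts per gene and barcode were deposited by the authors, made with Cell Ranger 3.1.0 on mm10, per the submitters' processing notes; cell calling and the gene annotation are not given in the sources used here. Barcodes with under 200 genes, with over 20% mitochondrial UMIs or called doublets (Scrublet at an expected rate of 5%, 0.80 to 2.83% of barcodes per library) were removed. Cells of all libraries were clustered together in Scanpy 1.11.5 (2000 variable genes, 30 components, 20 neighbours, Leiden resolution 1), without the 10 members and 4 lists of adhesion genes and without batch correction. Clusters were named from marker sets (at least 3 markers 2-fold above other cells). Mixed clusters were clustered again, with thresholds set after seeing the data (Python 3.11.15, NumPy 2.4.6, SciPy 1.17.1). Classes were compared with at least 100 (leukocytes) or 50 cells in both libraries.

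The members and all lists were chosen with earlier results of these data known. All 10 members are named. From each list up to 2 genes per direction with the largest log2 ratio are named, and for each member the 3 genes most alike. One gene that the rule names is not reported here. Cells are not replicates, so no test between groups was made. Ratios and intervals were checked on simulated data. Alternatives changed filters, clustering, class, added CPM, scaling, depth, weights and the UMI minimum. Symbols were matched to GENCODE M21 by gene ID (10 of 10) and to RefSeq promoters (6 of 10).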

Additional observations from a re-analysis of the deposited data

Results flagged for a closer look

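Members that passed 2-fold in opposite directions in 2 classes of the same comparison were looked at again; with 1 library per group the difference between the classes was not tested. Icam1 in TAA against control was higher in Kupffer cells (log2 1.46) and lower in hepatocytes (-1.44), where it rested on 4 TAA and 10 control UMIs and where 9.24% of genes were called lower. Vcam1 in TAA+C30 against TAA+C7.5 was higher in cholangiocytes (1.15, from 172 and 138 UMIs) and lower in monocytes or macrophages (-1.18, from 377 and 250 UMIs).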

How the results depend on the processing

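No paired analysis was possible because each group had 1 library. Of 15 alternatives, 3 were chosen after seeing the data (without cells under 1000 UMIs, without endothelial cluster 8, without neutrophil cluster 25). Of 166 recomputed counts of members past 2-fold, 147 stayed within 1.5 times, which includes counts of 0 that stayed at 0. Log2 ratios were recomputed for endothelial molecules in endothelium and for called pairs. Of these values 309 stayed within the counting interval, 70 left it and 4 reversed. Recomputed levels stayed within their interval 147 times and left it 29 times, and 18 endothelial shares left theirs after thinning. With clusters weighted equally, the endothelial TAA against control counts were 2 higher and 1 lower (4 and 0 as reported), which rested on endothelial cluster 6 alone; Vcam1 reversed to -0.65 there, and in monocytes or macrophages Vcam1 reversed to -0.027 and Cd34 to -0.41. In TAA+C7.5 against TAA, 2 endothelial molecules in place of 1 were lower without the mitochondrial filter, with doublets kept, at resolution 0.5, after thinning to 1000 UMIs and with clusters weighted equally, and 3 with TMM scaling. Itgal there, lower from 1 against 59 UMIs (-1.02), reversed to 0.62 with doublets kept. For the leukocyte partners in TAA against control, 4 in place of 2 pairs were lower with 1 CPM added, and 1 with 50 CPM added, TMM scaling, thinning or clusters weighted equally. In TAA+C30 against TAA+C7.5, 1 pair was higher with 1 CPM added, and 0 in place of 1 were lower with 50 CPM added, TMM scaling, thinning, clusters weighted equally or without neutrophil cluster 25. Where another setting reversed or lost a value, the cause was not tested. The 69 TAA+C7.5 and 18 TAA+C30 endothelial cells limit what can be compared there.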
